A study of Homo sapiens with 8 samples.

Results

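Caveolins and cavins are the proteins that build caveolae, and their genes are described here by the accessibility of their chromatin. The genes covered were CAV1, CAV2, CAVIN1, CAVIN2 and CAVIN3, and every ATAC-seq peak overlapping the RefSeq span of a gene, extended by 1 kb on both sides, was taken as a member. This gave 16 of the 159451 peaks of the series: 3 at CAV1, 1 at CAV2, 9 at CAVIN1, 2 at CAVIN2 and 1 at CAVIN3. All 16 passed the filter on low values. The genes were selected on values of these same libraries, since earlier results were known when they were proposed, so levels and differences at the 16 peaks are a description and carry no p-value. All 16 peaks overlapped the gene span itself, and the nearest peaks left out lay 1110 bp beyond the span at CAVIN3 and 1804 bp or more beyond it at the other genes.

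Caveolae are small flask-shaped pits of the plasma membrane, rich in cholesterol. CAV1 is the principal structural caveolin outside muscle, and CAV2 oligomerises with it. Cavins are cytosolic proteins that coat the pit: CAVIN1 is needed for caveolae to form, CAVIN2 helps to shape the membrane, and CAVIN3 binds CAVIN1 and has been linked to signalling and caveolar transport. Caveolae buffer membrane tension and concentrate signalling receptors, and CAV1 levels have been studied widely in drug-resistant tumour cells.

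ATAC-seq marks accessible DNA by the insertion of adapters with the transposase Tn5, which was applied to nuclei before barcoding and PCR. All libraries came from A2780, a cell line established from a human ovarian carcinoma and labelled as wild type. Control cells (treatment label NA) were compared with cisplatin-resistant cells (Cisplatin), paclitaxel-resistant cells (Paclitaxel) and a line resistant to both agents (Cisplatin/Paclitaxel, here dual-resistant), with 2 libraries in each of the 4 groups. Cisplatin crosslinks DNA, and paclitaxel stabilises microtubules. Each resistant model is 1 derivative line, the labels leave unstated whether drug was present at collection, and nothing says that the 2 libraries of a group were separate cultures, so standard errors and p-values measure only a spread between libraries that may be technical.

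Levels are CPM, the reads of a peak scaled to the library's reads in peaks, of which there were 7693492 to 9304798 per library. One read was worth 0.107 to 0.130 CPM, and a count of 0 would allow up to 0.322 to 0.390 CPM (3 reads, counting error only). Differences are on the log2(CPM + 0.5) scale with the standard error (SE) of a limma fit, and a call of higher or lower needs a p under 0.05 after Benjamini-Hochberg adjustment over 158698 tested peaks. In bulk cells, an opening in more of the cells and a wider opening per cell cannot be told apart. The start peak of a gene is its strongest peak at a RefSeq start or, where no start was listed, at an end of its span. Of 8 markers of A2780 and ovarian carcinoma, 7 had a start peak, MUC16 had none, and their summed level ranged from 19.2 to 36.4 CPM over the libraries. In control cells WT1 was at 5.82 CPM, EPCAM at 13.7 CPM and PAX8, a lineage factor of Müllerian epithelium, at 1.03 ± 0.36 CPM (SD, n = 2). Of 8 fibroblast markers, a cell type rich in caveolae, 7 had a start peak and FAP had none. Their summed level was 36.0 to 36.7 CPM in the controls, 71.2 to 74.7 CPM with cisplatin resistance, 73.1 to 75.2 CPM with paclitaxel resistance and 50.1 to 53.4 CPM with both. The markers did not move together: 5 of 7 were above control by sign with cisplatin resistance, 3 with paclitaxel resistance and 6 with both. Their median log2 difference was 0.16, -0.08 and 0.38 in the same order. Endothelial cells are also rich in caveolae, and 1 of 8 endothelial markers, CLDN5, had a start peak while PECAM1, CDH5 and VWF had none. CLDN5 was at 2.21 to 2.70 CPM in the controls, 1.17 to 2.03 CPM with cisplatin resistance, 11.2 to 11.9 CPM with paclitaxel resistance and 5.94 to 6.02 CPM with both. Its log2 difference was called in the last 2 lines (2.03 and 1.14). Muscle markers had a start peak for 2 of 4 genes, MYOD1 and DES, with a summed level of 14.3 to 14.5 CPM in the controls and 4.44 to 8.38 CPM in the resistant libraries, and adipocyte markers for 0 of 4. Haematopoietic markers had a start peak for 4 of 6 genes. Their summed level was 27.3 to 35.9 CPM in the controls and 23.3 to 38.9 CPM over all libraries, a range that overlapped that of the ovarian carcinoma markers. The part of other cell types in the results below was not tested.

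The promoter windows under the peaks that the results turn on are printed because the genes differ in base composition and in the motifs these windows hold. They run from 250 bases before to 50 after a RefSeq start, on GRCh38.p14 (the build called hg38 by the submitters), 5′ to 3′, and capitals mark matches on either strand to GGGCGG (SP1) or GGAATG (TEAD). The RefSeq table listed starts for CAV1, CAV2 and CAVIN2. At CAVIN1 the window belongs to the non-coding RNA gene LOC102725238, which starts under the CAVIN1 start peak. Further listed windows of CAV1, CAV2 and LOC102725238 overlap the same peaks and are not printed. In order, the windows are chr7:116524759-116525058 (plus strand, under CAV1 peak 1), chr7:116526112-116526411 (plus, under CAV1 peak 2), chr7:116499488-116499787 (plus, under the CAV2 peak), chr2:191847039-191847338 (minus, under CAVIN2 peak 2) and chr17:42423065-42423364 (plus, under CAVIN1 peak 9).
CAV1 first window: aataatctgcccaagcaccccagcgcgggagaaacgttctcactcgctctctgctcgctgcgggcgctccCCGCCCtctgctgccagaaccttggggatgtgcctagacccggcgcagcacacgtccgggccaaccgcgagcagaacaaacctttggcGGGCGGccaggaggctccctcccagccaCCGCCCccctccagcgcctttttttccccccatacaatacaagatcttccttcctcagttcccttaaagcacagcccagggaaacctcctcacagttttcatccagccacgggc
CAV1 second window: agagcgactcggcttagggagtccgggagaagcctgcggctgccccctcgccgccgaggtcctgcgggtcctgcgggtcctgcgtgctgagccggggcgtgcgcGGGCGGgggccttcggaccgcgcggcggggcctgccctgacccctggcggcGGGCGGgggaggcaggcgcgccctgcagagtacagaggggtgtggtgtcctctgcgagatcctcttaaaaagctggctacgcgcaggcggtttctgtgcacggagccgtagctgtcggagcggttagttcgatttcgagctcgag
CAV2 window: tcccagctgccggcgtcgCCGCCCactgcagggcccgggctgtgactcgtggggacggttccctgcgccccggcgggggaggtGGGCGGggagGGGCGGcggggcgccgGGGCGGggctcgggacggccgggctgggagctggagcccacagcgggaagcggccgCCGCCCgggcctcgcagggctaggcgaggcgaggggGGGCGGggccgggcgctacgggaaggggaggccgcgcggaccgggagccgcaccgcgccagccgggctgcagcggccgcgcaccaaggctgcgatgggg
CAVIN2 window: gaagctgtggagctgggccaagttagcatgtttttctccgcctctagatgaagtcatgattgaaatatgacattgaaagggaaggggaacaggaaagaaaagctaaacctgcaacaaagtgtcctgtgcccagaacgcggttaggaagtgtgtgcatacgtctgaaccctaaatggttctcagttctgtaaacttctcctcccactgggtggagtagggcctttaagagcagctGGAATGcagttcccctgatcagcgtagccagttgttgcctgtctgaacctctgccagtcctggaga
LOC102725238 window: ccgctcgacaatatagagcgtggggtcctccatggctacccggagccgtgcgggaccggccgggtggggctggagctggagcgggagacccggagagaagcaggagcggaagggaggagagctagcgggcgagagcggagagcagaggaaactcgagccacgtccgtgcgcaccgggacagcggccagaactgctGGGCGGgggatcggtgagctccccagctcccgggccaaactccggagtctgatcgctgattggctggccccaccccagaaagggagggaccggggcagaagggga

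The CAV2 window was 82.7% G and C with 43 CpG pairs and 6 SP1 matches, and 99.1% of all 35116 windows in the table had less G and C. The CAV1 windows held 62.3% and 71.0% G and C, 19 and 36 CpG pairs, and 3 and 2 SP1 matches. The printed LOC102725238 window held 69.0% G and C, 26 CpG pairs and 1 SP1 match. Its windows at chr17:42422937-42423236 and chr17:42422938-42423237, not printed, held 70.0% and 70.3% G and C, 32 CpG pairs each and no SP1 match. CAVIN2 differed from these in base composition, with 49.3% G and C and 5 CpG pairs. Its window held no SP1 match and 1 TEAD match at base 235, counted from its 5′ end. Over all windows the median was 58.7% G and C and 14 CpG pairs, SP1 matches occurred in 45.0% and TEAD matches in 14.0%. Searches for TGANTCA (AP-1, in 7.71% of all windows), TGTTTAC (forkhead, 3.42%), TATAAA (a core promoter motif, 11.5%) and CACGTG (E-box, 7.26%), also on both strands, found no match in the 5 printed windows. A match is a run of letters and not a measured binding site.

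In cisplatin-resistant cells the calls at cavin peaks were higher and those at caveolin peaks lower. Of the 12 cavin peaks, 9 were called higher than control, 7 of them at CAVIN1, and 0 lower. Of the 4 caveolin peaks 0 were higher and 2, both at CAV1, lower. Peaks of the same gene lie close together and are not independent members. The other 2 caveolin peaks, CAV1 peak 3 and CAV2, had log2 differences of 0.82 and 0.09 and no call. Over all tested peaks 18.3% were called higher and 14.9% lower in this comparison. In paclitaxel-resistant cells 3 of 4 caveolin peaks and 3 of 12 cavin peaks were lower and none of the 16 was higher (all tested peaks: 7.26% higher, 9.17% lower). In dual-resistant cells 3 of 4 caveolin peaks were lower and 2 of 12 cavin peaks higher (all tested peaks: 8.11% higher, 5.39% lower). The median log2 difference of the 16 peaks was 0.81, -0.69 and -0.01 in cisplatin-, paclitaxel- and dual-resistant cells, beside -0.09, -0.14 and 0.08 over all tested peaks. The 3 comparisons share the control libraries and are therefore not independent. The cisplatin count of 11 called peaks rested on few libraries and fell without any 1 control or cisplatin-resistant library. Calls over all tested peaks fell in each of these runs too, so the fall was not particular to the 16 peaks. With the median difference of peaks within 2.5 Mb on each side subtracted, 3 were higher and 3 lower. Over all tested peaks 27281 were then higher and 15707 lower.

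**Figure D1:**
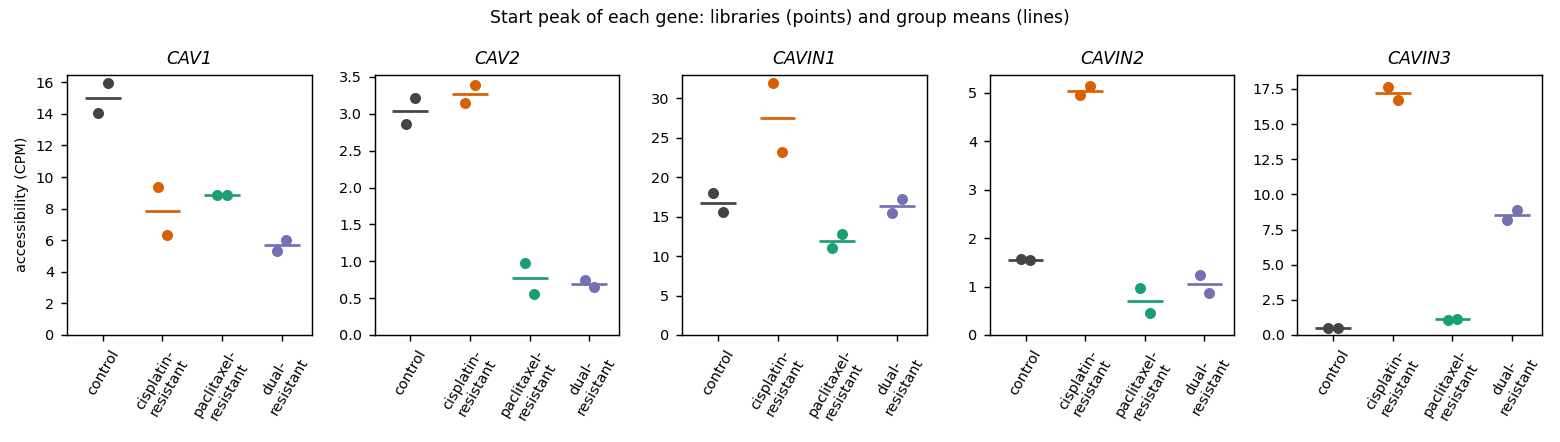
Accessibility in CPM (vertical axis, from 0 and scaled per gene) of the start peak of each gene in the 4 groups; points are the 2 libraries of a group and lines are group means. CAV1 was highest in control cells (15.0 CPM), while CAV2, CAVIN1, CAVIN2 and CAVIN3 had their highest mean in cisplatin-resistant cells.

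**Figure D2:**
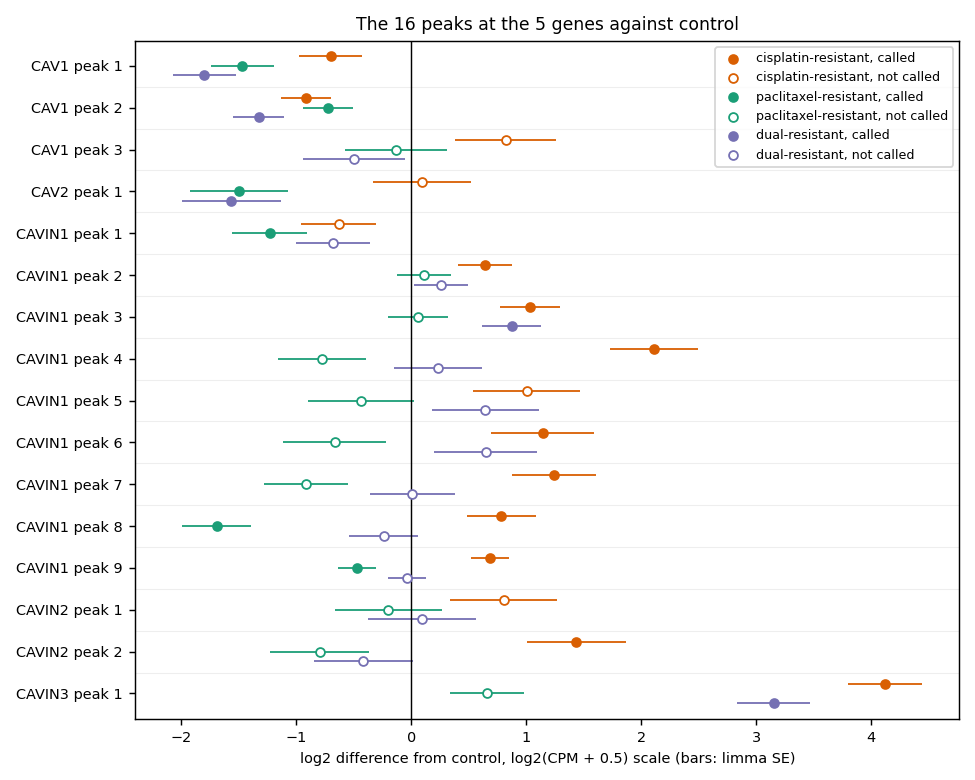
Log2 difference from control (horizontal axis, log2(CPM + 0.5) scale) of each of the 16 peaks in the 3 resistant lines; bars are limma's SE, filled points were called and open points were not. CAVIN3 stood at 4.12 and 3.15 in cisplatin- and dual-resistant cells, and CAV1 peaks 1 and 2 lay below 0 in all 3 lines.

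CAV1, the main caveolin gene, was less accessible in every resistant line at the 2 peaks over its listed starts. CAV1 peak 2 (chr7:116525919-116526919), its start peak and strongest peak, covers the second window above. Its level was 14.04 and 15.96 CPM in control libraries 1 and 2, 9.34 and 6.31 CPM in the cisplatin-resistant, 8.86 and 8.88 CPM in the paclitaxel-resistant and 5.32 and 6.02 CPM in the dual-resistant libraries. Control libraries were the highest and dual-resistant libraries the lowest, and only the cisplatin- and paclitaxel-resistant libraries overlapped. In the order cisplatin, paclitaxel, both, the log2 difference from control was -0.92, -0.72 and -1.33 (SE 0.22 each), with a lower call in each line. The cisplatin call was lost without cisplatin-resistant library 2 (-0.65). The paclitaxel call was lost with median-ratio scaling (-0.56), without control library 2 (-0.63) and without either paclitaxel-resistant library (-0.72 each). The dual-resistant call held in all 18 alternatives (-1.42 to -1.15).

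CAV1 peak 1 (chr7:116524230-116525230), over the first CAV1 window, showed a wider spread between lines. It was at 11.0 and 10.3 CPM in the controls, 7.09 and 5.73 CPM in the cisplatin-resistant, 3.16 and 3.93 CPM in the paclitaxel-resistant and 2.72 and 2.69 CPM in the dual-resistant libraries, with no overlap between any of the groups. The mean was 3.95-fold lower in dual-resistant and 3.01-fold lower in paclitaxel-resistant cells than in control (log2 differences -1.80 and -1.47, SE 0.27 each). Both lower calls held in all 18 alternatives. In cisplatin-resistant cells the log2 difference was -0.70 (SE 0.27), and this call was lost in 6 alternatives, among them each of the 4 that left out a control or cisplatin-resistant library (-0.84 to -0.56). CAV1 peak 3, further inside the gene, had 6 to 33 reads per library and no call against control (0.82, -0.14 and -0.50). It was the exception among the CAV1 peaks in that its mean was highest in cisplatin-resistant cells, at 2.97 ± 1.06 CPM against 1.42 ± 0.193 CPM in control (SD, n = 2). The summed level over the 3 CAV1 peaks was 27.1 CPM in control and 17.2, 13.7 and 9.25 CPM in the 3 resistant lines, in the order cisplatin, paclitaxel, both.

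CAV2, whose product oligomerises with CAV1, followed another pattern although its gene lies beside CAV1 on chromosome 7. Its only peak (chr7:116498849-116499849) also covers the start of the divergent transcript CAV2-DT, so accessibility there cannot be assigned to 1 gene. The peak was at 2.86 and 3.22 CPM in control and 3.15 and 3.39 CPM in cisplatin-resistant libraries, which overlapped. It was at 0.971 and 0.562 CPM in paclitaxel-resistant and 0.742 and 0.645 CPM in dual-resistant libraries, which overlapped with each other and lay below the other 4. In the same order, the log2 difference from control was 0.09, -1.50 and -1.57 (SE 0.43 each), and the mean was 3.96-fold and 4.38-fold lower in the latter lines. These low levels rest on 5 to 8 reads per library, and with a pseudocount of 2 the latter differences were -0.87 and -0.90, still called. Without control library 2 neither call was made (-1.43 and -1.49), and without paclitaxel-resistant library 2 the paclitaxel call was lost (-1.26).

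Between the 2 caveolin genes, and belonging to neither span, a peak at chr7:116511784-116512784 went from 7.43 ± 1.32 CPM in control to 4.46 ± 0.853, 2.78 ± 0.673 and 3.71 ± 0.529 CPM (SD, n = 2). It was lower in paclitaxel-resistant (log2 difference -1.28, SE 0.30, limma adjusted p = 0.00063) and dual-resistant cells (-0.91, SE 0.30, limma adjusted p = 0.027). The dual-resistant call was lost without any 1 of the 4 control and dual-resistant libraries (adjusted p up to 0.247). In cisplatin-resistant cells it was not called (-0.68, limma adjusted p = 0.070). Of the 9 peaks within 100 kb of the caveolin genes, 4 were higher and 1 lower with cisplatin resistance (all tested peaks: 18.3% and 14.9%). With paclitaxel resistance 1 was lower (9.17%), and with both 1 (5.39%). The gain in cisplatin-resistant cells was largest at a peak centred 56.9 kb below the CAV2 span. It went from 0.387 ± 0.36 to 5.84 ± 0.65 CPM (log2 difference 2.90, SE 0.48). Only the 2 cisplatin-resistant libraries reached 1 CPM there and at some of the other higher peaks. These peaks passed the filter through the group where they were high, so the comparison was no test of a gain. The peak 56.9 kb below the span was named after its values were seen, and its control level rests on 1 and 5 reads. Higher flanking peaks and lower CAV1 start peaks were thus found in the same line.

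CAVIN1, which encodes the cavin needed for caveolae to form, carried 9 peaks along its span, the most of the 5 genes. In cisplatin-resistant cells 7 of them were called, all higher (all tested peaks: 18.3% higher). In paclitaxel-resistant cells 3 were called, all lower (9.17% lower), and in dual-resistant cells 1 was called higher (8.11% higher). The sum over the peaks was 45.9 CPM in the controls, 83.2 CPM with cisplatin resistance, 30.7 CPM with paclitaxel resistance and 49.5 CPM with both. All CAVIN1 peaks were lower in paclitaxel- than in cisplatin-resistant cells by sign, and 7 of 9 by call (all tested peaks: 23.4% called lower). The surrounding chromatin leaned the same way, with a median log2 difference of 0.39 with cisplatin resistance and -0.18 with paclitaxel resistance over peaks within 2.5 Mb of CAVIN1 peak 9. With that median subtracted, 1 CAVIN1 peak was higher and 1 lower in cisplatin-resistant cells and 2 were lower in paclitaxel-resistant cells. Of all 158698 tested peaks, 27281 were then higher and 15707 lower with cisplatin resistance. With paclitaxel resistance 12686 were higher and 9113 lower. The part of the region in the change was not tested.

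The CAVIN1 start peak (peak 9, chr17:42422747-42423747), at the upper end of the span, was at 17.9 and 15.6 CPM in the controls, 32.0 and 23.2 CPM in the cisplatin-resistant, 11.0 and 12.8 CPM in the paclitaxel-resistant and 15.5 and 17.2 CPM in the dual-resistant libraries. Cisplatin-resistant libraries lay above and paclitaxel-resistant libraries below all others, and control and dual-resistant libraries overlapped. The log2 differences from control were 0.69 (SE 0.16), -0.47 (SE 0.16) and -0.03 (SE 0.16), called higher, lower and neither. The higher call was lost after regional subtraction (0.30) and without cisplatin-resistant library 1 (0.46). The lower call was lost in 6 alternatives, among them quantile and median-ratio scaling and leaving out control library 1 or paclitaxel-resistant library 1 (-0.58 to -0.29 over all alternatives). Because LOC102725238 starts under the same peak, the value belongs to both genes.

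The largest CAVIN1 differences lay inside the gene. CAVIN1 peak 4 (chr17:42409350-42410350), 7.40 kb from the lower end of the span, was at 1.56 and 2.32 CPM in the controls, 9.68 and 10.2 CPM in the cisplatin-resistant, 1.58 and 0.450 CPM in the paclitaxel-resistant and 3.96 and 1.29 CPM in the dual-resistant libraries. Only the cisplatin-resistant libraries stood apart from the other 6, with a mean 5.12-fold above control (log2 difference 2.11, SE 0.38; 1.60 to 2.35 in the 18 alternatives, called in all). CAVIN1 peak 8 (chr17:42421526-42422526), next to the start peak, was at 4.68 and 5.92 CPM in the controls, 8.33 and 10.6 CPM in the cisplatin-resistant, 1.34 and 1.24 CPM in the paclitaxel-resistant and 3.71 and 5.16 CPM in the dual-resistant libraries. It was called lower in paclitaxel-resistant cells (-1.69, SE 0.30), in all 18 alternatives, and higher in cisplatin-resistant cells (0.78, SE 0.30), a call lost in 6, among them regional subtraction (0.40) and each of the 4 that left out a control or cisplatin-resistant library. CAVIN1 peak 3 (chr17:42407046-42408046) was the only CAVIN1 peak called in dual-resistant cells, at 8.28 and 7.95 CPM against 3.25 and 5.41 CPM in control (0.87, SE 0.26), and 9.23 and 9.003 CPM in cisplatin-resistant cells (1.03, SE 0.26). In paclitaxel-resistant libraries it was at 5.34 and 3.596 CPM, overlapping control (0.06, SE 0.26). Its dual-resistant call was lost without control library 1 (0.55) and without either dual-resistant library.

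CAVIN1 peak 1 (chr17:42402465-42403465), at the lower end of the span, went against the other 8 in cisplatin-resistant cells. It was at 5.72 and 5.79 CPM in the controls, 4.61 and 2.69 CPM in the cisplatin-resistant, 2.31 and 2.02 CPM in the paclitaxel-resistant and 3.83 and 3.01 CPM in the dual-resistant libraries, with all resistant libraries below control. The call was made in paclitaxel-resistant cells (-1.23, SE 0.33, in all 18 alternatives) but not in the other lines (-0.63 and -0.68). Peaks 2, 5, 6 and 7 had log2 differences of 0.64 to 1.24 in cisplatin-, -0.91 to 0.11 in paclitaxel- and 0.01 to 0.65 in dual-resistant cells. Of the 4, peaks 2, 6 and 7 were called, all in cisplatin-resistant cells. Those calls were kept in 13 of 18, 9 of 17 and 15 of 18 alternatives, respectively. Without control library 2 the difference of peak 2 was 0.20.

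**Figure D3:**
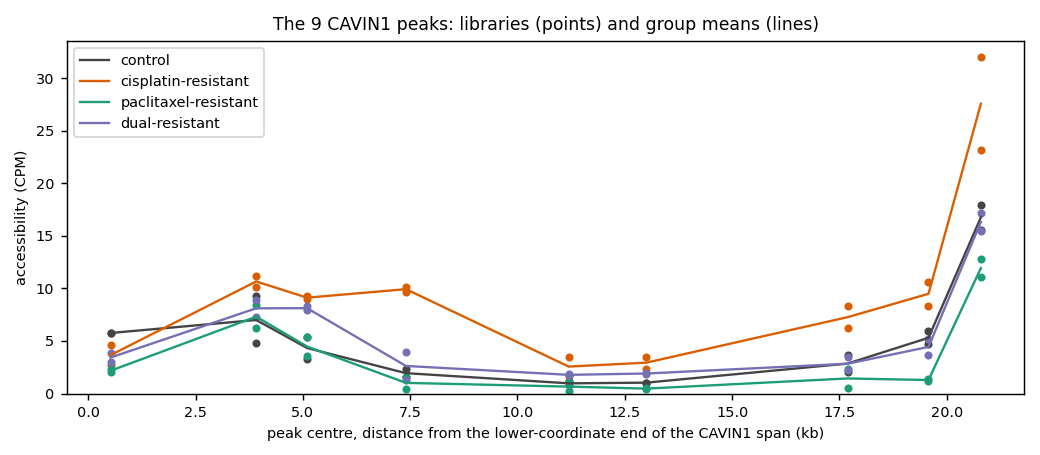
Accessibility in CPM (vertical axis, from 0) of the 9 CAVIN1 peaks against the distance of their centres from the lower end of the gene span in kb (horizontal axis); points are libraries and lines join group means. The cisplatin-resistant mean lay above the other groups at peaks 2 to 9, while control was highest at peak 1, and the start peak at 20.8 kb was the strongest in each group.

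CAVIN2, which encodes a cavin that shapes caveolar membranes, had the lowest summed level in control after CAVIN3, at 2.59 CPM over its 2 peaks. Its start peak (peak 2, chr2:191846637-191847637) overlaps the span of CAVIN2-AS1 as well and covers the window with the TEAD match. It was at 1.56 and 1.54 CPM in the controls, 4.95 and 5.14 CPM in the cisplatin-resistant, 0.971 and 0.450 CPM in the paclitaxel-resistant and 1.24 and 0.860 CPM in the dual-resistant libraries. The cisplatin-resistant libraries held 44 reads each and the other 6 held 4 to 12. The mean was 3.25-fold above control in cisplatin-resistant cells (1.43, SE 0.43, called higher), a call lost without either cisplatin-resistant library (1.41 and 1.46). No call was made in paclitaxel-resistant (-0.80) or dual-resistant cells (-0.42). CAVIN2 peak 1 had 5 to 23 reads per library and log2 differences of 0.80, -0.20 and 0.09, none called.

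CAVIN3, which encodes the cavin that binds CAVIN1, had the largest difference of the 5 genes. Its only peak (chr11:6319586-6320586) spans most of this short gene and also overlaps the non-coding RNA gene LOC101927825. It was at 0.520 and 0.515 CPM in the controls, 17.7 and 16.7 CPM in the cisplatin-resistant, 1.09 and 1.12 CPM in the paclitaxel-resistant and 8.16 and 8.92 CPM in the dual-resistant libraries. The reads behind these levels were 4 and 4, 157 and 143, 9 and 10, and 66 and 83, so the groups did not overlap and the control level was just above the 3-read floor. The mean rose 33.2-fold in cisplatin-resistant and 16.5-fold in dual-resistant cells (log2 differences 4.12 and 3.15, SE 0.32 each), both called higher in all 18 alternatives (2.93 to 5.02 and 2.06 to 4.01). The paclitaxel-resistant mean was 2.14-fold above control and was not called (0.66, SE 0.32).

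Set beside the start peaks of other genes, CAVIN3 moved from near the bottom to the middle of the distribution. It lay above 0.628% of 13386 distinct start peaks in control cells, 48.1% in cisplatin-resistant cells, 3.55% in paclitaxel-resistant cells and 28.3% in dual-resistant cells. Only 4 start peaks had a larger log2 difference in cisplatin-resistant cells, and 30 in dual-resistant cells. The start peak of CAVIN2 moved from above 4.44% to above 19.1% in cisplatin-resistant cells, and that of CAVIN1 from 42.9% to 65.6%. CAV1 moved the other way, from 39.9% in control to 27.3%, 29.6% and 20.5% in cisplatin-, paclitaxel- and dual-resistant cells. CAV2 lay above 10.4% in control cells, 11.9% in cisplatin-resistant cells, 2.14% in paclitaxel-resistant cells and 1.23% in dual-resistant cells. Over all 14727 genes with a start peak, 10.7% were called higher and 28.7% lower with cisplatin resistance, 13.3% higher and 9.59% lower with paclitaxel resistance, and 4.50% higher and 15.5% lower with both. Of the 5 start peaks of the family, 3 were higher and 1 lower, 0 higher and 3 lower, and 1 higher and 2 lower, respectively.

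The neighbourhood of each gene was described by the 49 peaks that lay 1 to 100 kb outside the spans. In cisplatin-resistant cells 14 were higher and 4 lower (all tested peaks: 18.3% and 14.9%). At several of the higher ones only the 2 cisplatin-resistant libraries reached 1 CPM. Those passed the filter through the group where they were high and could be called only as gains there. In paclitaxel-resistant cells the counts were 0 and 6 (7.26% and 9.17%), and in dual-resistant cells 4 and 3 (8.11% and 5.39%). The cisplatin count of 18 went to 12 without control library 2, 6 without cisplatin-resistant library 1 and 11 without library 2. The paclitaxel count of 6 went to 3 and 2 without control libraries 1 and 2 and to 1 without paclitaxel-resistant library 1. The dual-resistant count of 7 went to 1 and 3 without control libraries 1 and 2, and to 4 and 2 without dual-resistant libraries 1 and 2. Calls over all tested peaks fell too in each of these runs. With median-ratio scaling the cisplatin split was 17 higher and 2 lower, and the paclitaxel split 1 and 3.

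Around CAVIN3, 3 of 14 flanking peaks were higher and 3 lower in cisplatin-resistant cells (all tested peaks: 18.3% and 14.9%). The 3 lower ones were start peaks of neighbouring genes. The peak 1110 bp above the span (chr11:6321611-6322611) rose from 0.710 ± 0.269 to 4.43 ± 0.687 CPM in cisplatin-resistant cells (log2 difference 2.04, SE 0.46, limma adjusted p = 0.00019, called in all 18 alternatives). In dual-resistant cells, where CAVIN3 itself was also high, it was at 1.26 ± 0.0376 CPM and was not called (0.56, SE 0.46, limma adjusted p = 0.49). The other higher peaks were centred 30.4 kb below and 84.2 kb above the span and had log2 differences of 1.23 each (SE 0.49 and 0.41, limma adjusted p = 0.044 and 0.012). The first peak could be tested in 15 of the 18 alternatives, and its call was lost without either control library. The second call was lost without control library 2 or cisplatin-resistant library 1. The start peak of SMPD1, the acid sphingomyelinase gene, was at 34.4 ± 3.2 CPM in control and 29.2 ± 2.7 CPM in cisplatin-resistant cells (-0.23, limma adjusted p = 0.14). Those of FHIP1B, CCKBR and APBB1 were lower in cisplatin-resistant cells (-0.22, -0.94 and -0.55; limma adjusted p = 0.013, 0.008 and 0.036). The APBB1 and FHIP1B calls were lost with median-ratio scaling, and all 3 were lost without cisplatin-resistant library 1 and after regional subtraction, which turned FHIP1B to 0.20. The median over peaks within 2.5 Mb of CAVIN3 was -0.42 in cisplatin-resistant and 0.17 in dual-resistant cells, so the CAVIN3 difference was 4.54 and 2.98 relative to its region.

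Near CAVIN1, 5 of 21 flanking peaks were higher and 0 lower in cisplatin-resistant cells (all tested peaks: 18.3% and 14.9%). Some of the higher ones passed the filter only through the cisplatin-resistant libraries. The peak centred 5.22 kb above the span (chr17:42427979-42428979) rose from 7.12 ± 0.42 to 18.0 ± 2.8 CPM (log2 difference 1.27, SE 0.22, limma adjusted p = 1.3e-06). The start peak of STAT3, a cytokine-activated transcription factor gene, centred 13.8 kb below the span, was at 69.9 ± 5.5 CPM in control and 76.7 ± 0.44 CPM in cisplatin-resistant cells and was not called (0.13, limma adjusted p = 0.27). Around CAVIN2, 2 of 5 flanking peaks were higher in cisplatin-resistant cells (all tested peaks: 18.3%). The nearer of them (chr2:191866928-191867928), 19840 bp above the span, rose from 0.968 ± 0.634 to 5.28 ± 0.305 CPM (2.05, SE 0.44, limma adjusted p = 9.8e-05).

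**Figure D4:**
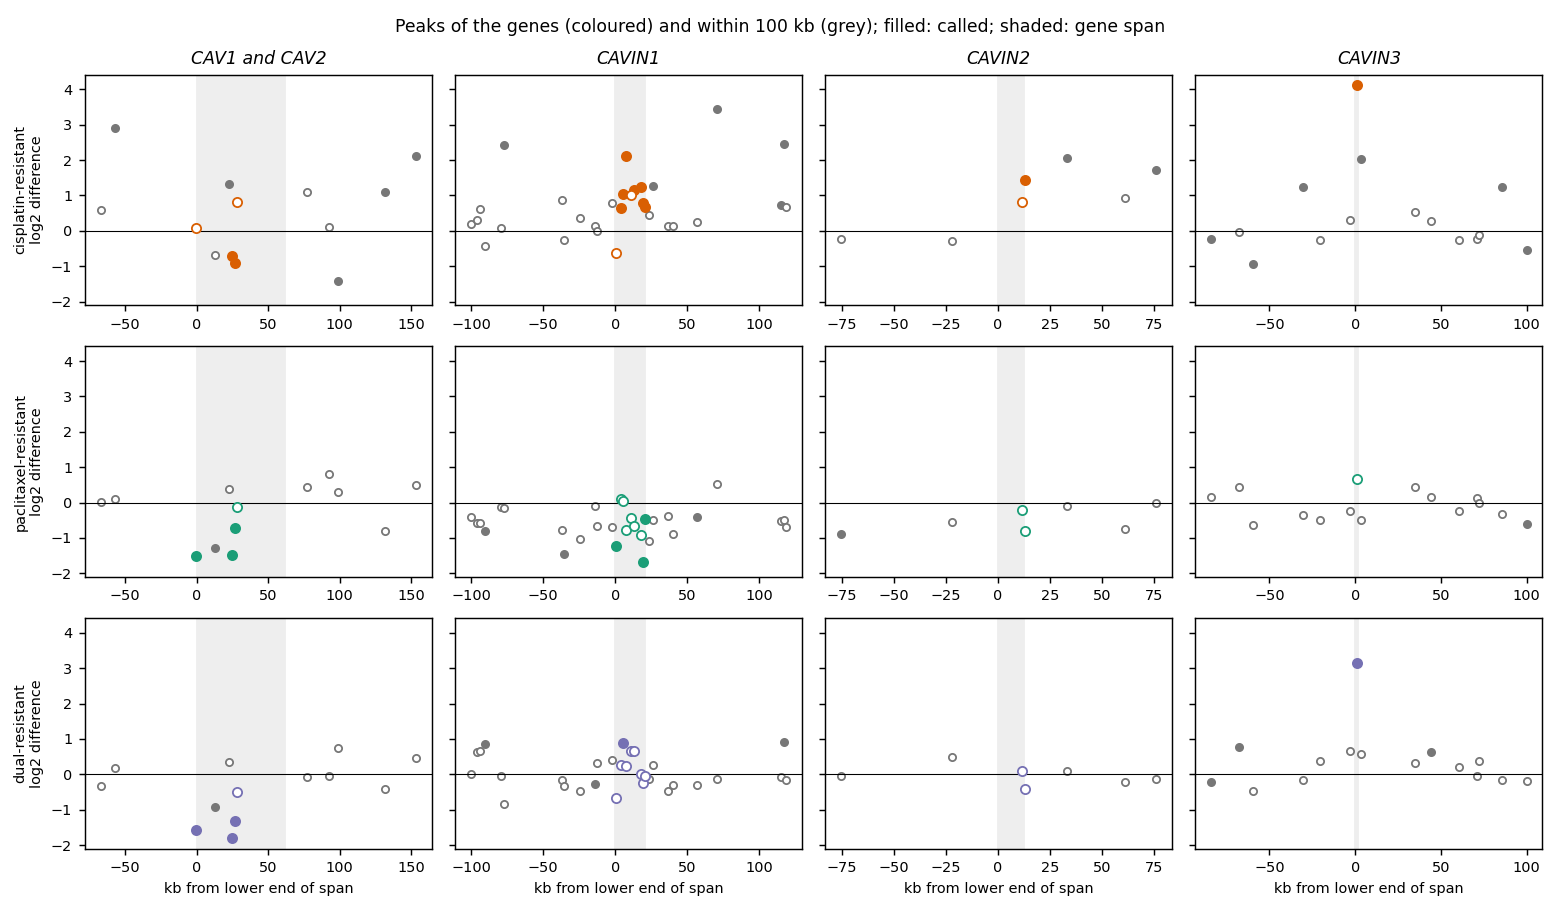
Log2 difference from control (vertical axis) against distance in kb from the lower end of the gene span (horizontal axis) for peaks of the genes (coloured) and peaks within 100 kb (grey), with one row of panels per resistant line and one column per locus; filled points were called and shading marks the span. In the top row most CAVIN1 peaks and several flanking peaks lie above 0 while CAV1 peaks 1 and 2 lie below it, and the CAVIN3 peak stands alone at 4.12 and 3.15 in the top and bottom rows.

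Over the 4 groups, mean accessibility was highest in cisplatin-resistant cells at 13 of the 16 peaks and in control cells at the other 3. It was lowest in paclitaxel-resistant cells at 9 peaks, dual-resistant cells at 4 and control at 3. The same shares over all tested peaks were not computed. All 16 peaks carry names of cisplatin-resistant libraries, as do 34.25% of all peaks, and the part of this in the order of the groups was not tested. Against cisplatin-resistant cells, 9 of 16 peaks were lower and 0 higher in dual-resistant cells (all tested peaks: 21.9% higher, 19.9% lower). In paclitaxel-resistant cells 11 were lower and 0 higher than in cisplatin-resistant cells (15.3% and 23.4% of all tested peaks). In dual- against paclitaxel-resistant cells, 6 were higher and 1 lower (14.9% and 7.44%). The first of these counts, 9, went to 5 without cisplatin-resistant library 1. The last, 7, went to 2 without paclitaxel-resistant library 2 and to 2 and 3 without dual-resistant libraries 1 and 2. Calls over all tested peaks fell in these runs as well. Quantile and median-ratio scaling turned the split of 6 and 1 in dual- against paclitaxel-resistant cells into 3 and 1 and 2 and 1.

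CAVIN3 was called in every pair of resistant lines. Dual-resistant cells lay below cisplatin-resistant cells (log2 difference -0.97, SE 0.32) and above paclitaxel-resistant cells (2.49, SE 0.32). Paclitaxel-resistant cells lay below cisplatin-resistant cells (-3.46, SE 0.32). CAV2 was lower in dual- than in cisplatin-resistant cells (-1.66, SE 0.43), and its difference between dual- and paclitaxel-resistant cells was -0.07 (SE 0.43). CAV1 peak 2 was the only member called lower in dual- than in paclitaxel-resistant cells (-0.61, SE 0.22). The CAVIN2 start peak was lower in dual- and paclitaxel- than in cisplatin-resistant cells (-1.85 and -2.23, SE 0.43 each).

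For most peaks the dual-resistant value showed no called departure from adding up the log2 differences found in both single-resistant lines. A departure was called for 2 of 16, CAVIN3 peak 1 below the sum (-1.63, SE 0.45) and CAVIN1 peak 1 above it (1.18, SE 0.46), whereas 15.0% of all tested peaks departed downwards and 19.3% upwards. The CAVIN3 departure was called in every alternative run (-2.25 to -1.17). That of CAVIN1 peak 1 was lost in 8 alternatives: with quantile (0.99) and median-ratio scaling (0.87), with edgeR, and without either control library, cisplatin-resistant library 2, paclitaxel-resistant library 2 or dual-resistant library 1.

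Over the 8 libraries, which fall into 4 groups and share their scaling, the start peaks of CAVIN1 and CAVIN2 had the highest correlation within the family (Pearson r = 0.87 on the log2 scale). For CAV2 and CAVIN2 r was 0.81, for CAV1 and CAV2 0.54, and for CAV1 and CAVIN3 -0.74. Outside the family, and more than 1 Mb away, the start peaks most like CAV1 were those of PPDPF (r = 0.97), PSMA3 and NAT14. Those most like CAV2 were ZNF841 (r = 0.99), EPDR1 and MME. ZNF841 went from 10.5 CPM in control and 11.7 CPM in cisplatin-resistant cells to 0.355 and 0.293 CPM in paclitaxel- and dual-resistant cells. Those most like CAVIN1 were TREX1 (r = 0.98), NFIL3 and ZMYND11, and those most like CAVIN2 were RGS3 (r = 0.98), CATSPER1 and LOC122455342. PCDH10 (r = 0.99), MYPN and SLC16A5 were most like CAVIN3. PCDH10, a protocadherin gene, was at 2.59 CPM in the controls, 30.3 CPM with cisplatin resistance, 2.68 CPM with paclitaxel resistance and 18.9 CPM with both.

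The other genes of caveolae were taken from a list of 34, of which 26 had a start peak. CAV3 and CAVIN4, the muscle members of both families, had none. The list was chosen with earlier results of these data known, so the adjusted p-values given for its genes are descriptive. In cisplatin-resistant cells 4 of 26 were higher and 4 lower (start peaks of all genes: 10.7% and 28.7%). In paclitaxel-resistant cells 2 were higher and 0 lower (13.3% and 9.59%), and in dual-resistant cells 0 and 5 of the 26 (4.50% and 15.5%). Their median log2 difference was -0.13, -0.01 and -0.13, beside -0.19, 0.02 and -0.14 over all start peaks. These counts depended on single libraries: the cisplatin count of 8 went to 4 without control library 2 and 3 without cisplatin-resistant library 1, the paclitaxel count of 2 to 4 without paclitaxel-resistant library 1, and the dual-resistant count of 5 to 3 without either control library or dual-resistant library 1. Over all tested peaks the calls fell in each of these runs. The cisplatin split of the partner genes was 5 higher and 3 lower with quantile or median-ratio scaling. With median-ratio scaling 7 were higher in paclitaxel-resistant cells and 0 lower.

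EHD2, an ATPase at the caveolar neck that holds caveolae at the membrane, had the largest rise of the list in cisplatin-resistant cells. Its start peak was at 1.49 ± 0.83, 4.87 ± 0.60, 1.10 ± 0.19 and 0.978 ± 0.016 CPM (SD, n = 2), in the order control, cisplatin, paclitaxel, both. The log2 difference in cisplatin-resistant cells was 1.49 (SE 0.43, limma adjusted p = 0.0035), and the call was lost without control library 2 or cisplatin-resistant library 1 (adjusted p up to 0.116). EHD4, a related ATPase gene, had the largest fall there, from 44.2 ± 4.4 to 31.2 ± 2.4 CPM (-0.50, SE 0.12, limma adjusted p = 0.00047; not called after regional subtraction), and fell to 31.5 ± 0.86 CPM in dual-resistant cells (-0.48, limma adjusted p = 0.0019; not called without control library 1). PACSIN2, a membrane-bending protein gene of caveolae, was at 28.1 ± 3.6 CPM in control and 24.5 ± 6.3, 30.8 ± 4.1 and 26.2 ± 6.3 CPM in the resistant lines, with no call.

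FLOT1, which encodes a flotillin of membrane microdomains outside caveolae, was the listed gene with the largest change in the other lines. It was at 27.2 ± 0.91 CPM in the controls, 34.3 ± 0.61 CPM with cisplatin resistance, 52.6 ± 1.3 CPM with paclitaxel resistance and 19.5 ± 5.4 CPM with both. The rise in paclitaxel-resistant cells (0.94, SE 0.13, limma adjusted p = 4.1e-09) was called in all 18 alternatives (0.43 to 1.11). The fall in dual-resistant cells (-0.49, SE 0.13, limma adjusted p = 0.0039) was lost without control library 2 or dual-resistant library 1. The rise in cisplatin-resistant cells (0.33, SE 0.13, limma adjusted p = 0.038) was lost in 8 alternatives, 6 of which left out a library.

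**Figure D5:**
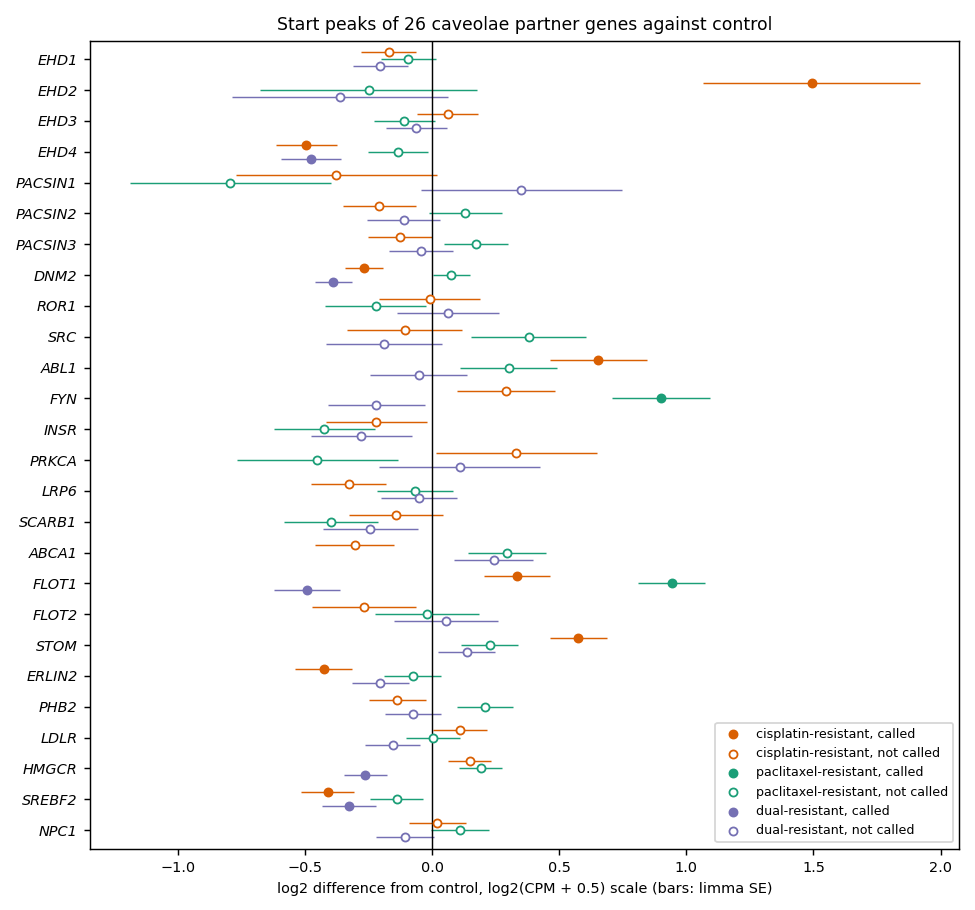
Log2 difference from control (horizontal axis, log2(CPM + 0.5) scale) of the start peaks of 26 other genes of caveolae and related membrane domains; bars are limma's SE, filled points were called and open points were not. EHD2 stood at 1.49 in cisplatin-resistant cells and FLOT1 at 0.94 in paclitaxel-resistant cells, and most other points lie within 0.5 of 0.

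The peak names of the matrix show from which library type a peak was taken, and all 16 peaks carry names of cisplatin-resistant libraries, as do 34.25% of all peaks. The merging of the libraries' peaks is described in none of the sources used here, and the part of that choice in the counts was not tested.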

How the data were processed

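ATAC-seq was run on 8 libraries of A2780 cells, 2 in each of 4 groups. The deposited matrix holds CPM values made by the authors for 159451 peaks of 1001 bp, and each column was matched through the name its label gives. Bowtie2, Picard, MACS2 and hg38 are named in the submitters' processing notes, whereas for versions, settings, any Tn5 shift and the merging of peaks nothing is stated there. In each library the deposited CPM values were whole multiples of 1 step, and 100% came out as whole reads within 0.01 read. Reads in peaks were 7693492 to 9304798 per library, so all members rest on shallow counts.

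The 158698 peaks that reached 1 CPM in 2 or more libraries were fitted together in limma 3.58.1 (R 4.3.3) on log2(CPM + 0.5), with a group term and a trend of variance on level. Residual degrees of freedom were 4 and prior degrees of freedom 98.5, so each SE rests mainly on the pooled trend. The scale understates changes of weak peaks. Adjusted p-values are Benjamini-Hochberg over all tested peaks, and a call needs an adjusted p under 0.05. Scripts were tested on simulated data.

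The members and all gene lists were chosen with earlier results of these data known. Values in every library are printed for each member's start peak and strongest peak and, for each line against control, the 3 called peaks with the largest difference in each direction; CAVIN1 peak 1 was added after its values were seen. Of the partner list, the called gene with the largest difference per line and direction is named, besides CAV3, CAVIN4, EHD2, PACSIN2 and FLOT1. Named flanking peaks were chosen after their values were seen. Start peaks came from RefSeq promoter windows (GRCh38.p14) for 11577 genes and from span ends for 3150, without strand or exon information.

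Alternatives were a pseudocount of 0.1 or 2, no filter or 3 CPM in 2 libraries, quantile and median-ratio scaling, subtraction of the regional median within 2.5 Mb on each side, edgeR 4.0.16 (quasi-likelihood) on the whole reads, a fit of only the groups compared, a replicate block, and leaving out each library. EdgeR called 27852 peaks higher and 22501 lower with cisplatin resistance, 11133 higher and 13870 lower with paclitaxel resistance, and 12126 higher and 8538 lower with both.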

Additional observations from a re-analysis of the deposited data

Results flagged for a closer look

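At 2 CAVIN1 peaks the cisplatin- and paclitaxel-resistant lines were called in opposite directions against control, and the direct comparison of the lines was called as well. CAVIN1 peak 8 was at 9.48 ± 1.64 CPM in cisplatin-resistant and 1.29 ± 0.0703 CPM in paclitaxel-resistant cells (SD, n = 2), a log2 difference of -2.47 (SE 0.30). The CAVIN1 start peak, peak 9, was at 27.6 ± 6.23 and 11.9 ± 1.25 CPM, a log2 difference of -1.16 (SE 0.16). Both come from the comparisons that the genes were selected on and are given as values.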

How the results depend on the processing

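Depth limits the weak peaks: CAV2 in paclitaxel- and dual-resistant cells and CAVIN3 in control rest on 4 to 8 reads per library. Median log2 differences over all tested peaks were -0.09 and -0.14 in cisplatin- and paclitaxel-resistant cells, -0.19 and -0.04 with quantile scaling and 0.01 and -0.00 with median-ratio scaling, and differences are to be read relative to these shifts. After regional subtraction 6 members were called in cisplatin-resistant cells, 2 in dual- against paclitaxel-resistant cells, 7 partner genes in paclitaxel-resistant cells and 4 flanking peaks in dual-resistant cells. Quantile scaling gave 4 members in dual- against paclitaxel-resistant cells, and 2 partner genes and 4 flanking peaks in dual-resistant cells. Median-ratio scaling gave 3 members in dual- against paclitaxel-resistant cells, 4 departures from the sum and 7 partner genes in paclitaxel-resistant cells. A pseudocount of 2 gave 4 departures, edgeR 1, and a pseudocount of 0.1 gave 4 flanking peaks in dual-resistant cells. The cause of these moves was not tested.

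At the start peaks, sign changed for 2 differences from control, neither of them called: CAV2 in cisplatin-resistant cells (quantile -0.079, regional -0.0025) and the CAVIN1 start peak in dual-resistant cells (quantile 0.012, regional 0.022, without control library 1 0.064, without dual-resistant library 1 0.040; -0.13 to 0.064 over all left-out libraries). At the other peaks of the 5 genes, 9 uncalled differences from control changed sign, within -1.01 to 0.89, and no called one did. Leaving out each library in turn gave 4 to 11 members called in cisplatin-, 4 to 6 in paclitaxel- and 4 to 5 in dual-resistant cells. It gave 5 to 9 in dual- against cisplatin-resistant, 2 to 7 in dual- against paclitaxel-resistant and 9 to 12 in paclitaxel- against cisplatin-resistant cells, and 1 to 2 departures. Partner genes ranged from 3 to 9, 2 to 4 and 3 to 5, and flanking peaks from 6 to 18, 1 to 7 and 1 to 7, in cisplatin-, paclitaxel- and dual-resistant cells. Where a group is left with 1 library, that library is assumed to vary like the others. Replicate numbers did not pair the libraries (correlations of deviations -0.000587 to 0.00332), and with a replicate block the members called in dual- against paclitaxel-resistant cells went from 7 to 8 while the other member counts stayed at 11, 6, 5, 9, 11 and 2. Among differences at the start peaks, 246 of the values under alternatives kept direction and call and 18 lost the call. Among counts, 195 stayed within 1.5 times the reported count and 38 did not.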
